A study of Mus musculus with 2 samples.

Results

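Igf2, H19, Ndn and Nnat are 4 imprinted genes with regions listed as peaks for the helicase Mov10 in the neonatal mouse brain. They were selected on measured values, because each had a region in which reads of the Mov10 immunoprecipitation (IP) exceeded those of the input strongly enough for the authors' peak caller to list it. A peak was given to a gene when it shared 1 base or more with an exon on the strand opposite to the strand listed for the peak. By this rule, 6 of the 2296 peaks belonged to the 4 genes, with 3 for Igf2 and 1 each for H19, Ndn and Nnat. The smallest overlap of a peak with exons of its gene was 135 bases, for Nnat, so none of the peaks depended on the 1-base limit.

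The material was the pooled brain tissue of 28 WT pups of the C57bl/6 strain, taken 2 days after birth. One library was made from the RNA that came down with a Mov10 antibody and the other from total input RNA of the same kind of brain, with no UV cross-linking in the sequenced experiment. A library from an irrelevant antibody was made in the study and is not analysed here. With 1 library a group there is no replicate, so each ratio compares these 2 libraries and its interval covers counting error only. Fewer cells of a type and less RNA per cell cannot be told apart in such bulk tissue.

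An imprinted gene is expressed mainly from 1 parental copy. Igf2, a fetal growth factor expressed from the paternal copy, and H19, a long noncoding RNA expressed from the maternal copy, lie beside each other and share enhancers, and the 1st exon of H19 also carries the hairpin of miR-675. Necdin, the protein of Ndn, is a MAGE family protein of postmitotic neurons from the chromosomal region that corresponds to the Prader-Willi locus. Nnat encodes neuronatin, a small membrane protein of the endoplasmic reticulum in developing neurons, and sits inside an intron of Blcap on the other strand. Mov10 is an RNA helicase known to work with the RNA-binding proteins Fmrp and Ago2. In the brain, Igf2 is best known from the choroid plexus, the meninges and vessels.

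The sequences under the peaks are shown because the peaks of the 4 genes lay in different parts of their RNAs. All are in the sense of the RNA, 5′ to 3′, on mm10 (GRCm38), with runs of 3 or more G in capitals. The H19 peak, at chr7:142577201-142577400 on the minus strand of the RNA, is the whole 200-base region in the 1st exon. The Ndn line is the coding part of its peak, chr7:62348408-62348600 on the plus strand, from the start codon on. The Nnat line is the coding part of its peak, chr2:157561542-157561631 on the plus strand, up to the last codon before the stop. The Igf2 peaks lie in a 3′ untranslated region, of which only short stretches are printed.
H19 peak: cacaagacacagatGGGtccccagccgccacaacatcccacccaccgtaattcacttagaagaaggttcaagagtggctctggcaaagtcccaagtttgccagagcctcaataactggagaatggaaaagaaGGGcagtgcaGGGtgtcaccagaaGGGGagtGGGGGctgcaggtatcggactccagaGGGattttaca
Ndn coding part: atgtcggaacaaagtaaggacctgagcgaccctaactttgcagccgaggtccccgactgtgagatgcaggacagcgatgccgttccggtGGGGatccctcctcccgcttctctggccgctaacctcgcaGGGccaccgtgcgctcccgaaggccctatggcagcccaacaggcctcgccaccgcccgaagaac
Nnat coding part: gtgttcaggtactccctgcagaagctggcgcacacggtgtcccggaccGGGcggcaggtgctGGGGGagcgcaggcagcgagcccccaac
Igf2 peak 1, stretch with 4 runs of GGG: GGGtcatctGGGccctGGGGcctgaGGG
Igf2 peak 2, its 30 bases richest in G: tctatcgcttggcctgagttGGGagtggag
Igf2 peak 3, its 30 bases richest in G: tttctcagtgaGGGaggtgttctagcaagg

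The Igf2 stretches lie on the minus strand at chr7:142651526-142651553, chr7:142652003-142652032 and chr7:142652714-142652743. Another stretch of the same RNA is shown because the study's brain iCLIP, a cross-linking assay on younger pups, listed it. The listed letters were placed here by an exact search of the Igf2 transcript, and they matched as reverse complement. The stretch covers chr7:142651416-142651440 and lies wholly within peak 1.
Igf2 iCLIP region in peak 1: tgcttccagtgcagtccccctgccc
A second listed region, at chr7:142652780-142652807, shares 21 of its 28 bases with peak 3.
Igf2 iCLIP region at peak 3: ccaatccatctagtttctgctgctgctt
A longer listed region of 32 bases, at chr7:142652007-142652038, lies wholly within peak 2 and is not printed. These 3 were the only ones of 17 listed Igf2 regions that shared a base with an Igf2 peak. None of the 3 listed regions of H19 or the 1 of Nnat shared a base with the peak of its gene, and 0 were listed for Ndn. Such sharing was not counted for the peaks of other genes. Whether its presence at Igf2 or its absence at H19 and Nnat is usual was therefore not tested.

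The 4 RNAs carried their peaks at different places along the spliced transcript. In Igf2-205, the longest Igf2 transcript with a RefSeq partner (4722 bases), all 3 peaks fell in the 3′ untranslated region. Peak 3 began 1018 bases after the coding sequence, peak 2 began 1618 bases after it and peak 1 began 2218 bases after it, with 400 bases between neighbouring peaks. Peak 1 ended 632 bases before the 3′ end of the transcript. In H19-202 (2286 bases) the peak covered bases 744 to 943. The Ndn peak straddled the start codon of the only exon of Ndn, with 7 bases of the 5′ leader and 193 coding bases that reach into codon 65. The Nnat peak, chr2:157561426-157561650, was of another kind. Only 109 of its 225 bases were exonic in Nnat-202, the transcript shown, with 90 coding bases (codons 52 to 81) and 19 bases from the stop codon on, while the rest lay in the intron before the last exon. Counting every annotated Nnat transcript, 135 bases were exonic and 90 intronic.

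**Figure D1:**
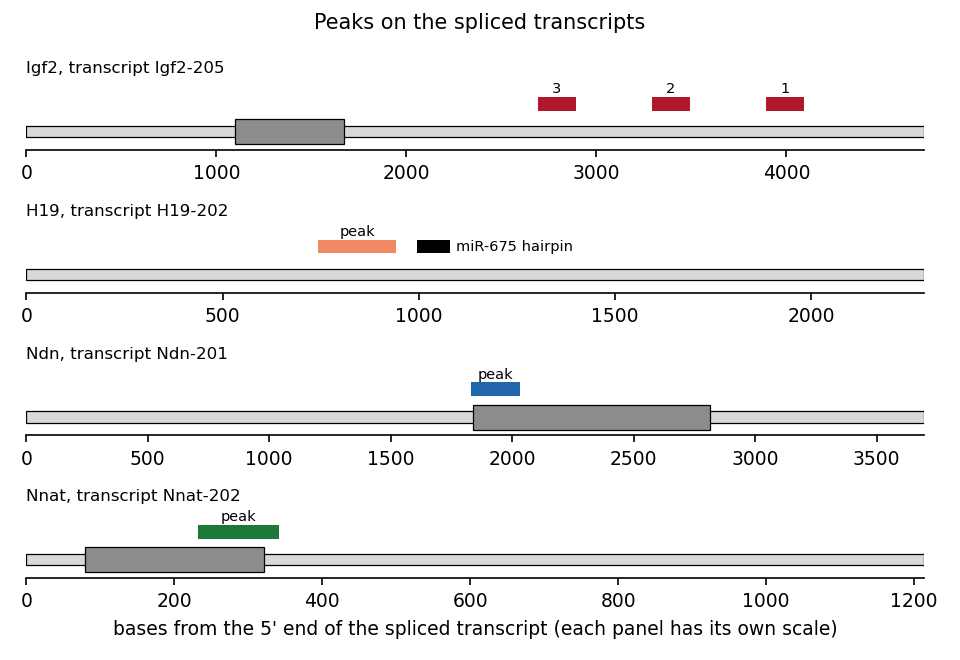
Position of the 6 peaks (coloured bars) on 1 spliced transcript of each gene, in bases from the 5′ end, with the coding sequence as the thick grey part and the miR-675 hairpin as a black bar. The Igf2 peaks lie 3′ of the coding sequence, the Ndn peak covers its beginning and the Nnat peak its end, and only the exonic part of the Nnat peak (109 bases) is drawn.

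The miR-675 hairpin, which gives an H19 product of its own, lay next to the H19 peak and not in it. The hairpin occupies chr7:142577064-142577147 on the minus strand, 53 bases 3′ of the peak, and 0 of the peaks shared a base with it. Its mature miRNAs, from RefSeq (GRCm38.p6), are given with the seed, bases 2 to 8, in capitals, and the seeds of the pair differ.
mmu-miR-675-5p: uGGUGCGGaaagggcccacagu
mmu-miR-675-3p: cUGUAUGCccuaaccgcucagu

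Igf2, the growth factor mRNA, had low input counts and high IP counts at each of its 3 peaks. Peak 1 (chr7:142651401-142651600) held 4237 reads in the IP and 66 in the input. Peak 2 (chr7:142652001-142652200) held 4663 reads in the IP and 44 in the input. Peak 3 (chr7:142652601-142652800) held 4810 reads in the IP and 38 in the input. The IP counts of the 3 regions therefore lay close together, and the input count was lowest at the peak nearest the coding sequence. Divided by the aligned reads of each library that the study states, the ratio of IP to input was 53.5 at peak 1 (95% interval 42.0 to 69.3), 88.3 at peak 2 (65.7 to 122) and 106 at peak 3 (76.8 to 149). Summed over the gene, 13710 IP reads stood against 148 input reads, a ratio of 77.2 (65.7 to 91.4). With the uniquely aligned reads of each library as totals, that ratio was 47.3, outside its interval. Those totals multiply every ratio of IP to input by 0.613 and leave quotients between genes as they are.

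Within Igf2, the ratio of peak 3 was 1.97 times that of peak 1, with an exact conditional interval of 1.3 to 3.03. The ratio of peak 2 was 1.65 times that of peak 1 (1.11 to 2.48). Both intervals stayed above 1 when widened for the 3 pairs, with lower limits of 1.19 and 1.02. Peaks 3 and 2 differed by 1.19 times, an interval of 0.755 to 1.90 that holds 1. Peak 3 lies in an exon of Igf2-205 and in an intron of the shorter Igf2-202. The predicted gene Gm49394 shares the exons under all 3 peaks, so its reads and those of Igf2 cannot be split.

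H19, the noncoding neighbour of Igf2, stood close to peak 1 of Igf2. Its peak held 4303 reads in the IP and 71 in the input, a ratio of 50.5 (40.0 to 64.8). Its IP count lay within the range of the Igf2 peaks and its input count just above theirs. Over the whole genes, the ratio of Igf2 was 1.53 times that of H19 (1.13 to 2.05). Widened for the 6 pairs of genes, that interval reached from 1.02 to 2.25, so the difference between the neighbours only just exceeded the counting error. With the Igf2 peak of most IP reads alone, the quotient was 2.09 (1.21 to 3.69 at the widened level).

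Ndn had the most reads of the 6 peaks in both libraries. Its region (chr7:62348401-62348600) held 6774 reads in the IP and 721 in the input, a ratio of 7.83 (7.25 to 8.47). The input level was 60.5 RPKM (reads per kilobase, scaled to 1000000 aligned reads of the library), the 27th highest of the 743 exonic chromosome peaks with at least 10 input reads, and the IP level of 474 was the 16th highest. Ndn thus combined a high level in the input with the lowest ratio of the 4 genes. Its adjusted p from the authors' peak caller was 1.01e-35, while the other 5 peaks are listed at 0.

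Nnat lay between Ndn and the growth genes. Its region held 4211 reads in the IP and 257 in the input, a ratio of 13.7 (12 to 15.6). Its input level, 19.2 RPKM, ranked 130th of the same 743 peaks, and its IP level of 262 ranked 133rd. The Nnat ratio was near the middle of all exonic peaks on chromosomes, whose median over 768 peaks was 14.5 (order statistic interval 13.6 to 15.4). Without a base-level profile, reads from spliced Nnat mRNA and from the intron under the same peak could not be separated. Blcap spans the region on the opposite strand, with no exon under the peak.

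**Figure D2:**
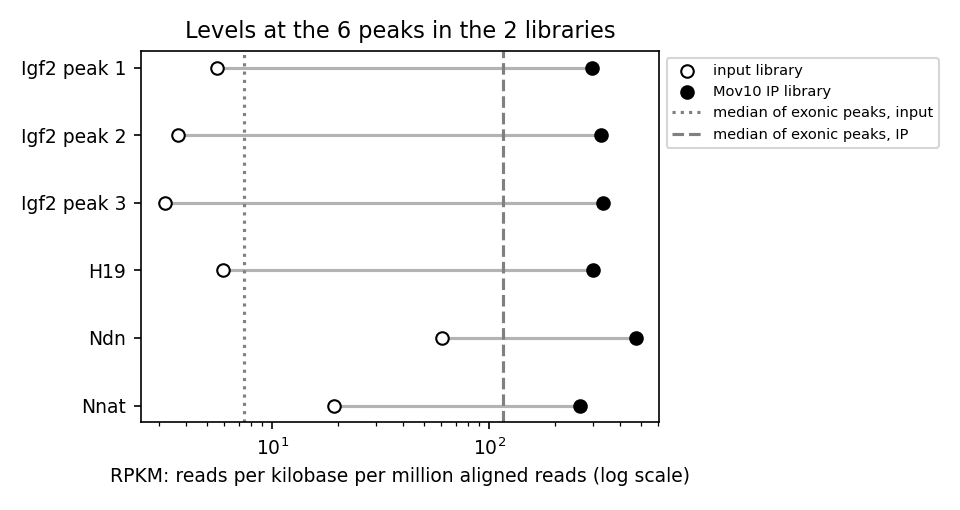
Level in RPKM (log axis) at each of the 6 peaks in the input library (open circles) and the Mov10 IP library (filled circles), with the medians of exonic peaks as vertical lines. The IP levels lie between 262 and 474, while the input levels run from 3.19 at Igf2 peak 3 to 60.5 at Ndn.

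The 4 genes fell in the order Igf2, H19, Nnat and Ndn by ratio, and the 6 quotients between them were read with intervals widened for 6 pairs. Igf2 exceeded Ndn by 9.86 times (7.75 to 12.7) and Nnat by 5.65 times (4.28 to 7.52). H19 exceeded Ndn by 6.45 times (4.65 to 9.19) and Nnat by 3.70 times (2.59 to 5.4). The quotient of Ndn over Nnat was 0.573 (0.468 to 0.70). Every one of the 6 intervals left out 1, with the neighbours Igf2 and H19 nearest to it. These differences concern the sequenced reads of the 2 libraries and not replicate animals.

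Among these called peaks, the ratios differed more through the input than through the IP. The caller listed regions for their IP excess, and how far that narrowed the IP range was not tested. Over the 6 peaks the highest IP level was 1.81 times the lowest, whereas the highest input level was 19 times the lowest. A like pattern held in the rest of the peak list, in which peaks of 1 chromosome and strand shared a narrow band of IP counts. Over the 29 such sets with at least 5 peaks, the highest IP count per 200 bases was 1.2 to 1.90 times the lowest (median 1.52). The bands themselves differed, with set medians from 286 (chromosome Y, plus strand) to 21288 (chromosome 9, plus strand) IP reads per 200 bases. An IP rank over all sets, as given for Ndn and Nnat, therefore also depends on the set. In the sets whose lowest input count was above 0, the highest input count was a median 23.3 times the lowest.

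The Igf2 and H19 peaks belong to the 27 peaks on the plus strand of chromosome 7. Their IP counts ran from 3691 to 5252 per 200 bases over the set, and those of Igf2 and H19 lay inside that band, ranking 5th and 8th for Igf2 peaks 3 and 2, 15th for H19 and 19th for Igf2 peak 1. The input counts ran from 38 to 1064, and the 4 lowest were Igf2 peak 3, peak 2, peak 1 and H19. The next lowest input count was 84, at Pop4, with a ratio of 36.6, and the next highest ratio was 39.2, at Psmd8. Within that set of called peaks, both genes had the fewest input reads, with IP reads inside the common band. Ndn was the only peak on the minus strand of chromosome 7, so it has no such set to stand in. Nnat was 1 of 24 peaks on the minus strand of chromosome 2 and ranked 21st by IP level and 17th by ratio.

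**Figure D3:**
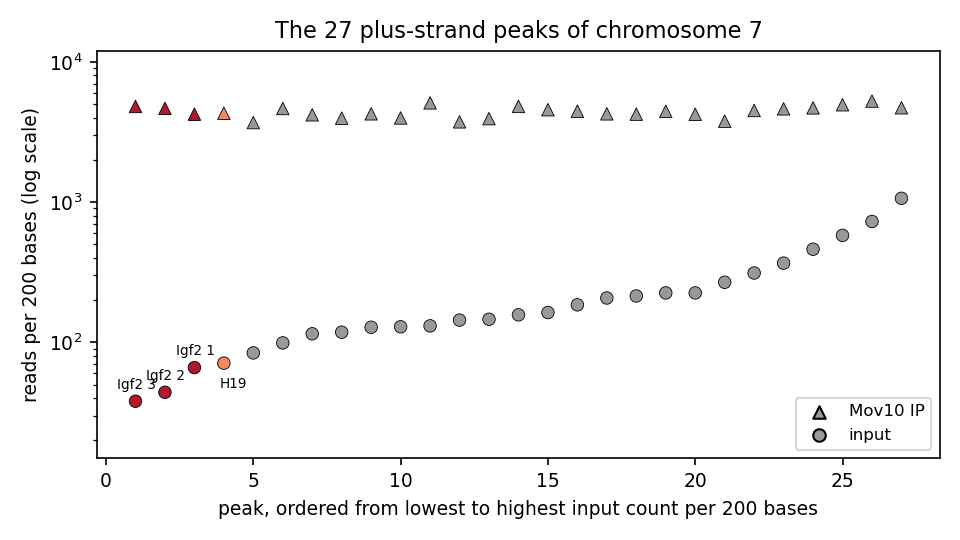
Reads per 200 bases (log axis) in the IP (triangles) and the input (circles) at the 27 plus-strand peaks of chromosome 7, ordered by input count, with Igf2 in red, H19 in orange and other genes in grey. The triangles stay between 3691 and 5252 while the circles rise from 38 to 1064, and Igf2 and H19 hold the 4 lowest circles.

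All 6 peaks passed an adjusted p of 0.05, as did 43.4% of all 2296 peaks and 90.4% of the 768 exonic peaks on chromosomes. All 6 also had a ratio interval above 1, which 99.3% of those exonic peaks had. None passed 0.05 on eFDR, the peak caller's empirical false discovery rate from swapping IP and input, while 36.8% of exonic peaks did. The eFDR was 0.667 for H19 and each Igf2 peak, 0.833 for Ndn and 0.478 for Nnat. It hardly varied within a set, since in 27 of the 32 sets of 1 chromosome and strand the lowest and the highest eFDR differed by less than 0.05. Because the IP excess chose the peaks, these counts describe the members and support nothing further. Among the 743 exonic peaks with at least 10 input reads, Igf2 peaks 3, 2 and 1 ranked 6th, 8th and 26th by ratio and H19 ranked 33rd, whereas Nnat ranked 385th and Ndn 584th. That limit leaves out peaks of few input reads, many of which have higher ratios. Of all 768 exonic peaks, 3.39% had a higher ratio than Igf2 peak 3. Ratio ranks also depend on the set, with median ratios of 22.4 for chromosome 7 plus and 17.6 for chromosome 2 minus.

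**Figure D4:**
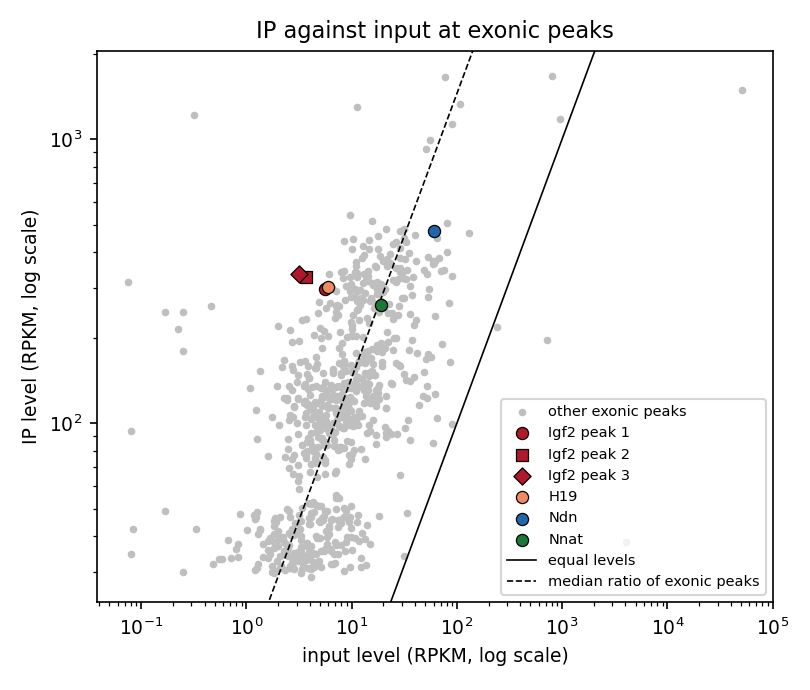
IP level against input level (both in RPKM, log axes) at the exonic chromosome peaks with an input read, with the 6 peaks in colour, equality as a solid line and the median ratio of 14.5 as a dashed line. Igf2 and H19 lie to the left of the dashed line, at ratios from 50.5 to 106, Nnat lies on it and Ndn lies to its right.

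Of 61 imprinted genes, 7 (11.5%) had an exonic peak past the adjusted p, against 1.26% of 32065 protein-coding and long noncoding genes of any expression level. The 4 members were in that list by choice, and of the other 57 genes 3 (5.26%) had such a peak. Gnas, which encodes the stimulatory G protein alpha subunit, had 2 peaks and a summed ratio of 23.4 (21 to 26.2). Peg10, derived from a retrotransposon and placental in its best known role, had 4 peaks and a ratio of 10.4 (9.10 to 11.9). Ppp1r9a, the neuronal actin-binding protein neurabin, had 1 peak and a ratio of 10.9 (8.60 to 14.0). The median ratio of the 7 genes was 13.6, beside 14.7 over the 497 genes with a passing exonic peak. The imprinted neighbours of Ndn, among them Magel2, Mkrn3, Snrpn and Ube3a, had no such peak. On the strand of Ndn, the Ndn peak was the only one listed for chromosome 7. For neighbours on that strand, a missing peak therefore says little. For 10 of the 61 genes no peak of any gene, members included, was listed on the matching chromosome and strand. A missing peak says nothing of binding there.

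Lists of genes around each member in its pathway were read in the same way. Of the 19 other genes of the IGF axis, which held the receptors Igf1r, Igf2r and Insr, the binding proteins Igfbp1 to Igfbp7 and the Igf2 mRNA-binding proteins, 0 had a passing exonic peak. Of 19 relatives and partners of necdin, 1 had one, Maged1, a MAGE protein of neurotrophin receptor signalling, with 5028 IP reads against 950 input reads over 2 peaks. Its summed ratio of 4.41 (4.12 to 4.73) was lower than that of Ndn, but its 2 peaks lay on both sides of Ndn. The wholly exonic peak had a ratio of 16.4 (13.4 to 20.2). The other, with 214 of its 410 bases exonic, had 2.95 (2.74 to 3.19). Of 13 genes around neuronatin and endoplasmic reticulum calcium, 1 had one, Hspa5, the chaperone BiP, with 4199 IP reads against 98 input reads and a ratio of 35.7 (29.2 to 44.1). These shares, 0%, 5.26% and 7.69%, stand beside the 1.26% of all genes. In each of the 3 lists, 4 genes lay on a chromosome and strand with no listed peak of any gene.

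**Figure D5:**
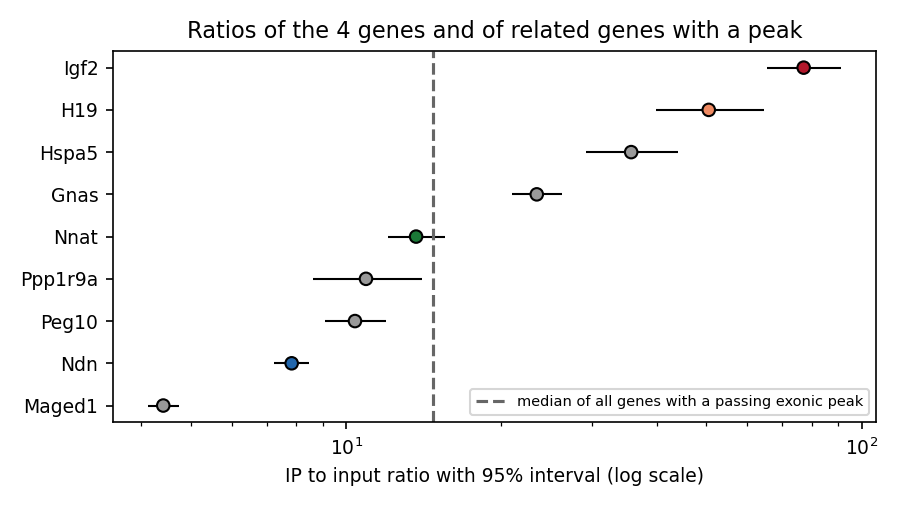
Ratio of IP to input (log axis) with its 95% counting interval for the 4 genes (coloured) and for the other imprinted or pathway genes with a passing exonic peak (grey), with the median of all 497 genes as a dashed line at 14.7. Igf2 (77.2) and H19 (50.5) stand highest and Maged1 (4.41) lowest, and the interval of Nnat crosses the dashed line.

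By levels in the 2 libraries, the nearest genes to each member were found among 537 genes, as a description over 2 libraries only, with each gene represented by its exonic peak of most IP reads. H19 lay nearest to 1 of the 2 peaks of the imprinted gene Gnas, with 4817 IP reads, 87 input reads and a ratio of 46.2, above the 23.4 of the whole gene (distance 0.12 on the log2 scale of both levels) and to Metap2, a methionine aminopeptidase. Nnat lay nearest to Jund, a transcription factor of the AP-1 family (0.04), and to the intermediate filament gene Vim (0.14). Ndn lay nearest to Cox7a2l, a respiratory chain assembly factor (0.13), and to the calcium sensor Vsnl1 (0.34). Igf2 was represented by peak 3, which has the highest ratio of its 3 peaks. From that peak, Tpm3-rs7, a tropomyosin-related copy whose reads may be shared with its parent gene, lay at 0.55 and Tpm4 at 0.74.

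The base composition under the peaks, which the selection did not use, differed among the genes. The exonic part of the Nnat peak held 71.6% G and C, higher than in 95.7% of the 699 exonic peaks with at least 100 exonic bases, and higher than in 94.9% of the windows of its length along Nnat-202. The Ndn peak held 64.5% and exceeded 87.3% of the peaks and 95.7% of the windows of its own transcript, whose average was 44.5%. H19 held 53.5%, close to the median peak at 53.3%, and exceeded 32.1% of the windows of its own transcript. The Igf2 peaks spanned the range, with 62.5% at peak 1, 46.5% at peak 2 and 51.0% at peak 3. Peak 1 exceeded 72.7% of the windows of the Igf2 transcript, peak 2 exceeded 18.8% and peak 3 exceeded 29.4%. H19 and Igf2 peaks 2 and 3 thus did not exceed most windows of their own transcripts. Among the 6, Igf2 peak 2 had the lowest content and the second highest ratio, while Nnat and Ndn had the highest contents and the lowest ratios. Other peaks broke that order. Igf2 peak 1, with a content near that of Ndn, had a ratio of 53.5 against 7.83, and Igf2 peak 3 exceeded peak 2 in both. The Nnat content covers its exonic part, while its ratio covers the whole peak. A relation between content and ratio was not tested.

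Folding of the RNA strand was predicted for the same exonic stretches. The minimum free energy was -43.3 kcal/mol per 100 bases at Igf2 peak 1, stronger than in 95.3% of the peaks, and -40.5 at Nnat, stronger than in 92.3%. It was -19.9 at Igf2 peak 2, weaker than in most peaks, and the median peak had -27.1. H19, Ndn and Igf2 peak 3 lay between, at -31.8, -34.0 and -30.5.

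Short motifs were searched on the strand of the RNA alone, since the opposite strand is not in it. GGG occurred in all 6 peaks and in 84.1% of the 699. The pattern of 4 GGG runs set 1 to 7 bases apart occurred in Igf2 peak 1, in the stretch printed above, and in 1.86% of the 699. Along the whole transcripts it had 12 matches in Igf2-205, 17 in H19-202, 3 in Ndn-201 and 1 in Nnat-202. The let-7 seed match CTACCTC occurred in 0 of the 6 and in 1.43% of the 699, although Igf2-205 has 2 matches elsewhere and H19-202 has none. The poly(A) signal AATAAA occurred in 0 of the 6 and in 9.01% of the 699, with 1 match 32 bases 3′ of Igf2 peak 2. Of these 4 patterns, GGG alone occurred in the peaks of all 4 genes, and at 84.1% of the 699 it is not particular to them.

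Cell type markers were read beside the tissue label. Over all protein-coding and long noncoding genes, 1.26% had a passing exonic peak. Of 10 neuronal markers 6 had a passing exonic peak, together with 4 of 10 of astrocytes and radial glia, 1 of 10 of oligodendrocytes and 0 of 10 each of microglia and of blood. For cells in which Igf2 is best known, the counts were 0 of 10 markers of the choroid plexus, 1 of 10 of the meninges and fibroblasts (Col1a2, ratio 14.6) and 2 of 10 of endothelium and pericytes (Cldn5, 25.3, and Sparc, 76.0). The passing peaks of the vascular markers summed to 57.4 RPM (reads scaled to 1000000 aligned reads) in the IP and 0.923 RPM in the input, and the single meningeal one to 26.8 and 1.83 RPM. Some markers lay on a chromosome and strand with no listed peak of any gene. These were 4 each of meninges and microglia, 3 of oligodendrocytes, 2 each of choroid plexus, blood and astrocytes, and 1 of endothelium. The list holds only called regions, so the level of a marker with no peak is unknown. The part of meningeal, choroid plexus or vascular cells in the Igf2 and H19 values was not tested. The strand rule held widely, since of 736 chromosome peaks with exons on a single strand, 726 had them opposite the listed strand.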

How the data were processed

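RNA of a Mov10 IP and of the input, 1 library each, was sequenced. Per the labels, bcl2fastq 2.17.1.14 and TopHat2 2.1.1 were used, with mm10 as the genome. The authors kept reads with many alignments, then called peaks of the IP over the input by chromosome and strand with RIPSeeker. The deposited table gives for each peak the read count in both libraries, not scaled to depth, with p-value, adjusted p-value and eFDR. Counts cannot show how reads with several alignments were placed.

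The members and lists were chosen with earlier results of these data known. Ratios are counts divided by the aligned reads of each library that the study states, because reads in peaks are not the depth. Intervals are exact conditional binomial (95%), quotients use the exact conditional odds ratio, and medians use a pseudocount of 0.5. Exons came from GENCODE M21 on GRCm38, the build of the files, and RefSeq exon coordinates were not used here. The text names the 4 genes, every list gene with an exonic peak past an adjusted p of 0.05, and the 2 genes nearest to each member by log2 levels, with at least 10 reads in each library. Marker genes and genes of the same chromosome set, and list genes without a peak, were named after their values were seen. Of each peak, BLAST+ 2.17.0 found a copy at 95% identity over 100 bases only in Gm49394, for Igf2. Folding used ViennaRNA 2.7.2, with Python 3.11.15 and scipy 1.17.1. The interval was tested on simulated data. Alternatives were other library totals, pseudocounts, thresholds, exon rules and peak choices.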

Additional observations from a re-analysis of the deposited data

How the results depend on the processing

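No paired analysis was possible because each group holds 1 library. Uniquely aligned reads as library totals multiplied every ratio by 0.613, to 47.3 for Igf2, 31.0 for H19, 4.80 for Ndn, 8.37 for Nnat and 8.86 for the median of exonic peaks, and left the order of the genes and their quotients as they were. The Igf2 peak with the most IP reads alone gave a ratio of 106. An eFDR of at most 0.05 left 0 of the 6 peaks and 2 of the 7 imprinted genes. Alternatives chosen after seeing the data gave a median ratio of 22.4 for exonic plus-strand peaks of chromosome 7 and 17.6 for minus-strand peaks of chromosome 2. Of 52 results under an alternative, the other 42 were counted as unchanged in direction, side of the threshold or place within the interval. Among these, gene bodies on either strand gave 9 imprinted genes with a peak in place of 7. Some of the 42 could not change. The choice of peak is void for H19, Ndn and Nnat, which have 1 peak each. Likewise, exons of GENCODE alone are the rule used in the report. The input counts of Igf2 and H19, from 38 reads at Igf2 peak 3, set the width of their counting intervals, and with 1 library a group no spread between animals or IPs can be given.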
